A study of Homo sapiens with 12 samples.

Results

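The 59 genes described here encode the machinery of mitosis: kinases and cyclins that start and time it, kinetochore proteins, spindle motors, cytokinesis factors and condensin. They were chosen by name from the gene symbols of a count table of 27864 genes. All 59 had exactly 1 row in that table, and all 59 were among the 16081 genes with enough counts to be tested. Messenger RNA was sequenced in T47D cells, an established luminal, estrogen receptor-positive breast cancer line. The control line is called CTRL, and the line in which NF1 was knocked out is called NF1KO. NF1 encodes neurofibromin, which turns RAS signalling down. Cells of each line spent 48 h in the vehicle DMSO or in 3 µM BYL719 (alpelisib), a drug that blocks PI3K alpha. CTRL gave 3 libraries in each condition, and NF1KO gave 2 in DMSO and 3 in BYL719, over 4 groups in all. NF1KO DMSO replicate 1 was not analysed here. All libraries of a genotype carry the same CTRL or NF1KO label, and how NF1 was disrupted and whether the knockout line is a clone or a pool are not given in the sources used here. The p-values measure the spread between these libraries. A difference between the lines is therefore a difference between these 2 lines, and the spread between libraries does not measure how other knockouts would vary.

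A cell that divides must condense its chromosomes, attach each sister chromatid to opposite spindle poles, hold back separation until every kinetochore is attached, and then cut the cytoplasm between the separated sets. CDK1 with cyclin B drives entry, the spindle checkpoint (BUB1, BUB1B, MAD2L1, TTK) delays anaphase, and CDC20 with the anaphase-promoting complex ends it by marking securin (PTTG1) and cyclin B for destruction. In cycling cells most of these genes are transcribed in G2 and mitosis and are kept low in resting and G1 cells, so their summed mRNA is widely used as a readout of proliferation in breast tumours. Many of their promoters carry a cell cycle homology region (CHR), an element read by the DREAM, MuvB-MYBL2 and FOXM1 complexes, and CCAAT boxes, which bind NF-Y.

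The promoter sequences are shown because these elements were found in most, though not all, of the promoters of the 59 genes for which a window was available. RefSeq promoter windows (GRCh38.p14, 250 bases before to 50 bases after a start) were matched by Entrez identifier for 50 of the 59 genes. AURKA, TTK, PBK, UBE2C, CENPM, KNL1, TPX2, BIRC5 and RACGAP1 had no entry. The CHR was searched as TTTGAA or TTCGAA and the CCAAT box as CCAAT, on both strands, and neither contains the other. A CHR was present in 67.7% of the 62 windows of the 59 genes, against 16.4% of all 35116 windows of the table. CCAAT was present in 71.0% of their windows, against 34.6% of all windows. Counted per gene, 39 of the 50 (78.0%) held a CHR and 31 (62.0%) held both motifs in a window, against 15.5% and 6.65% of the 12380 tested genes with a window. A match to these letters is a description of the sequence and not a measured binding site. The 150 bases before the start are printed for CDC20, CCNB1, PLK1 and CCNB2, plus strand, with CHR and CCAAT matches in capitals.
CDC20, chr1:43358831-43358980: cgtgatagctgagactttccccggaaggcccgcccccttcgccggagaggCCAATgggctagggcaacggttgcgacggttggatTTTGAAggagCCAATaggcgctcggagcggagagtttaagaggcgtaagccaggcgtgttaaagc
CCNB1, chr5:69167000-69167149: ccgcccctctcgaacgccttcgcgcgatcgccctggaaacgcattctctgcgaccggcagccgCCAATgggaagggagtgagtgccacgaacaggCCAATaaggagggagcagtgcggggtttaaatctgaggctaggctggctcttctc
PLK1, chr16:23678739-23678888: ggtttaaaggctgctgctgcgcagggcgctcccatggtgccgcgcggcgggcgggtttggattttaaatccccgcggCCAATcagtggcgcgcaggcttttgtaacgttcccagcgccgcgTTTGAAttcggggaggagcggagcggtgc
CCNB2, chr15:59104996-59105145: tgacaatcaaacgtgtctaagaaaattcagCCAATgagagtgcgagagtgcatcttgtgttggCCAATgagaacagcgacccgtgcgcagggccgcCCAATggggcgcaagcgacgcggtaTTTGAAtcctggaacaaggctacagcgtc
Within these 150 bases, the CHR of PLK1 and of CCNB2 began 29 bases before the start, and that of CDC20 began 65 bases before it. CCNB1 had no CHR letters in the printed stretch and held CCAAT boxes 87 and 55 bases before the start. In the same stretch CCNB2 had 3 CCAAT boxes, at 120, 87 and 54 bases before the start, CDC20 had 2, at 100 and 55, and PLK1 had 1, at 73.

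The libraries held between 53283945 and 60148876 counts. NF1 mRNA stood at 147 to 289 CPM (read counts scaled to a common library size) in the 6 CTRL libraries and at 0.400 to 0.891 CPM in the 5 NF1KO libraries, so no library went against its genotype label. All 9 luminal epithelial markers that were examined were present in every library, from EPCAM at 123 to 146 CPM to KRT8 at 3540 to 5120 CPM. Of 8 basal, stromal and immune markers, KRT5, KRT14, COL1A2 and PTPRC stood between 0 and 0.279 CPM. VIM stood at 1.91 to 3.4 CPM, TP63 at 0.0186 to 1.06 CPM and PECAM1 at 0 to 0.709 CPM. The sum of all 8 was 52.9 to 58.7 CPM in CTRL DMSO, 29.6 to 37.7 CPM in CTRL BYL719, 29.7 to 29.9 CPM in NF1KO DMSO and 20.2 to 25.6 CPM in NF1KO BYL719, of which COL1A1 made 16.6 to 55.2 CPM. The summed luminal markers were 9340 to 10800 CPM in CTRL DMSO, 11400 to 13300 CPM in CTRL BYL719, 10500 to 10600 CPM in NF1KO DMSO and 10000 to 10700 CPM in NF1KO BYL719. The sum of the 8, mostly COL1A1, was thus lower under BYL719 in both lines, and the luminal sum was higher in CTRL. Single markers of the 8 went both ways. Of the 4 tested, 2 were called lower under BYL719 in CTRL, and 1 was called lower and 1 higher in NF1KO. Against CTRL, 1 was lower and 2 were higher in NF1KO, in DMSO and in BYL719. The part of these markers in the results was not tested.

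CTRL replicate 1 stood apart from CTRL replicates 2 and 3, in DMSO and in BYL719, and mainly for genes with a long mRNA. Against the mean of replicates 2 and 3, replicate 1 differed by a median of 0.64 (DMSO) and 0.86 (BYL719) on the log2 CPM scale over the 10 longest of the 59 genes (ASPM, CENPF, KNL1, CENPE, KIF14, ESPL1, KIF20B, SMC2, TOP2A and NCAPD2). Over the other 49 genes the median was 0.05 in DMSO and 0.26 in BYL719. CENPE was the extreme, at 1.59 in DMSO and 1.78 in BYL719. As a description over the 59 genes, which share these libraries, Spearman's rho of this difference with mRNA length was 0.748 in DMSO and 0.729 in BYL719, and over 13683 tested genes with a length it was 0.408 and 0.469. A trend with length was present within NF1KO BYL719 as well, with a rho over the 59 genes of 0.828 for replicate 2 and -0.691 for replicate 3 against the other replicates, but the differences were smaller, between -0.44 and 0.29 in these libraries, against up to 1.78 in CTRL. Results are therefore also given without both of these libraries, an alternative added after the data were seen.

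**Figure D1:**
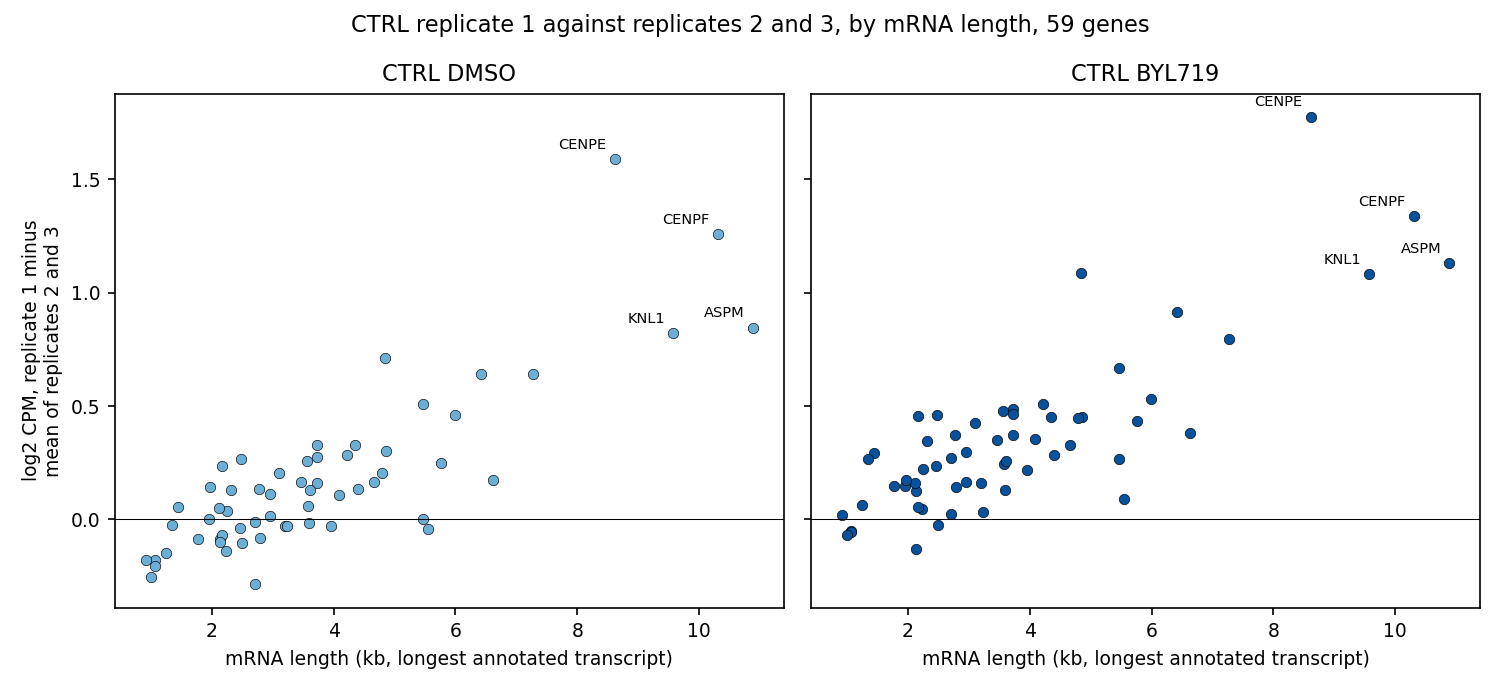
Difference on the log2 CPM scale between CTRL replicate 1 and the mean of CTRL replicates 2 and 3 (y axis) against the length of the longest annotated transcript in kilobases (x axis), 1 point for each of the 59 genes, in DMSO on the left and BYL719 on the right. The points rise with length, and CENPE is highest in both panels, at 1.59 and 1.78.

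BYL719 lowered every gene of the set in the control line, and lowered them much less in the NF1 knockout line. In CTRL, 59 of 59 fell (edgeR's quasi-likelihood test, Benjamini-Hochberg adjusted p under 0.05, which is what "fell" and "rose" mean throughout), with a median log2 fold change of -1.50 and a range from -1.85 (CDC20) to -0.91 (ASPM). Their mRNA was left at a median of 35.4% of the DMSO level. In NF1KO, 25 of 59 fell and none rose, the median log2 fold change was -0.29, and a median of 82.0% of the DMSO level was left. The 2 lines' responses to BYL719 were compared by an interaction term, and their difference was called for 54 of 59 genes, each less lowered in NF1KO, with a median of 1.25 on the log2 scale. The 5 not called were CENPE, CENPF, KNL1, KIF20B and ASPM, all among the longest mRNAs.

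Over all 16081 tested genes, 21.8% were called lower and 22.6% higher under BYL719 in CTRL, and the median log2 fold change was 0.00. In NF1KO, 8.47% were called lower and 10.3% higher, with a median of 0.01. The difference of the effect was called higher in NF1KO for 5.68% of tested genes and lower for 3.71%, with a median of 0.01. Without overlap between the libraries of the groups, 56 of the 59 were lower under BYL719 in CTRL (25.3% of tested genes were) and 47 were lower in NF1KO (26.2% of tested genes were). The same drug fall can be seen in the share of all counts that the 59 genes took: 0.998% to 1.20% in CTRL DMSO, 0.327% to 0.482% in CTRL BYL719, 0.933% to 0.939% in NF1KO DMSO and 0.763% to 0.793% in NF1KO BYL719. The ranges of the 4 groups do not overlap. In bulk RNA, fewer cells in mitosis and less of these mRNAs per cell cannot be told apart.

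In BYL719 the knockout line held more of these mRNAs than the control line. Of 59 genes, 55 were higher in NF1KO under BYL719 and none was lower, with a median log2 difference of 1.09, and 54 had every NF1KO library above every CTRL library. Of all tested genes, 20.8% were called higher and 19.0% lower in that comparison, and 25.2% were higher without overlap. CENPE, CENPF, KNL1 and ASPM were not called. In DMSO 3 genes (CDC25C, HMMR, TOP2A) were lower in NF1KO and 2 (PLK1, CENPM) were higher, against 10.3% and 9.99% of all tested genes. The fold changes leaned to lower values in NF1KO: 49 of the 59 were below 0, with a median of -0.13, against 8278 of 16081 tested genes and a median of -0.01. Without overlap between the libraries, 36 of the 59 were lower and 4 higher in NF1KO (28.2% and 27.9% of tested genes were). The comparisons share control libraries, so their results are not independent of each other.

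Without both CTRL replicate 1 libraries, 59 of 59 fell in CTRL (median -1.59), 41 of 59 fell in NF1KO, 59 were higher in NF1KO under BYL719, and the difference of effects was called for all 59 (median 1.34). Of 15941 genes tested in that fit, 3752 fell in CTRL, 2548 fell in NF1KO and 3868 were higher in NF1KO under BYL719. The difference was called higher in NF1KO for 1393 of them. In DMSO the same fit called 10 of the 59 genes lower and 2 higher in NF1KO, against 2162 and 1983 of the 15941. Over all tested genes, the number that fell in NF1KO was 1362 in the main fit and 772 without NF1KO BYL719 replicate 2. It was 2161 with the replicate number as a block and 2017 when only NF1KO libraries entered. The median of the 59 in NF1KO was -0.29 in the main fit and -0.32 or -0.27 without NF1KO DMSO replicate 2 or 3. It was -0.30 without NF1KO BYL719 replicate 2 and -0.33 with the block. The count of the 59 genes that fell in NF1KO moved with single libraries. It was 13 without NF1KO BYL719 replicate 2, 41 with the replicate number as a block and 40 when only NF1KO libraries entered the fit. Without NF1KO DMSO replicate 2 or 3, which leaves 1 library in that group, most of the NF1KO calls were lost. Fewer of all tested genes were called in those fits as well. Calls were gained too. Among the 26 genes given by library, over the alternatives run, HMMR passed the test in NF1KO in 9, KIF18B in 7, TTK and BIRC5 in 6 each, CENPN and ANLN in 4 each, NCAPG in 3 and PRC1 in 1. Outside those 26, a call was gained in at least 1 alternative by BUB1B, MAD2L1, ESPL1, NUF2, SPC24, KNL1, KIF4A, KIF11, KIF14, KIF23 and SMC4. In CTRL the count was 56 without CTRL DMSO replicate 1, CTRL BYL719 replicate 2 or CTRL BYL719 replicate 3, each time without CENPE, CENPF and ASPM. CENPF was lost also without NF1KO BYL719 replicate 1. With the replicate number as a block in the CTRL libraries alone, an alternative added after the data were seen, all 59 fell in CTRL. In the fit of both lines the block terms are shared by the lines, and NF1KO DMSO has no replicate 1. Between the lines, deviations of same-numbered BYL719 libraries correlated at 0.061, -0.087 and 0.15. Block values for NF1KO, here and below, therefore also depend on differences between CTRL libraries.

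**Figure D2:**
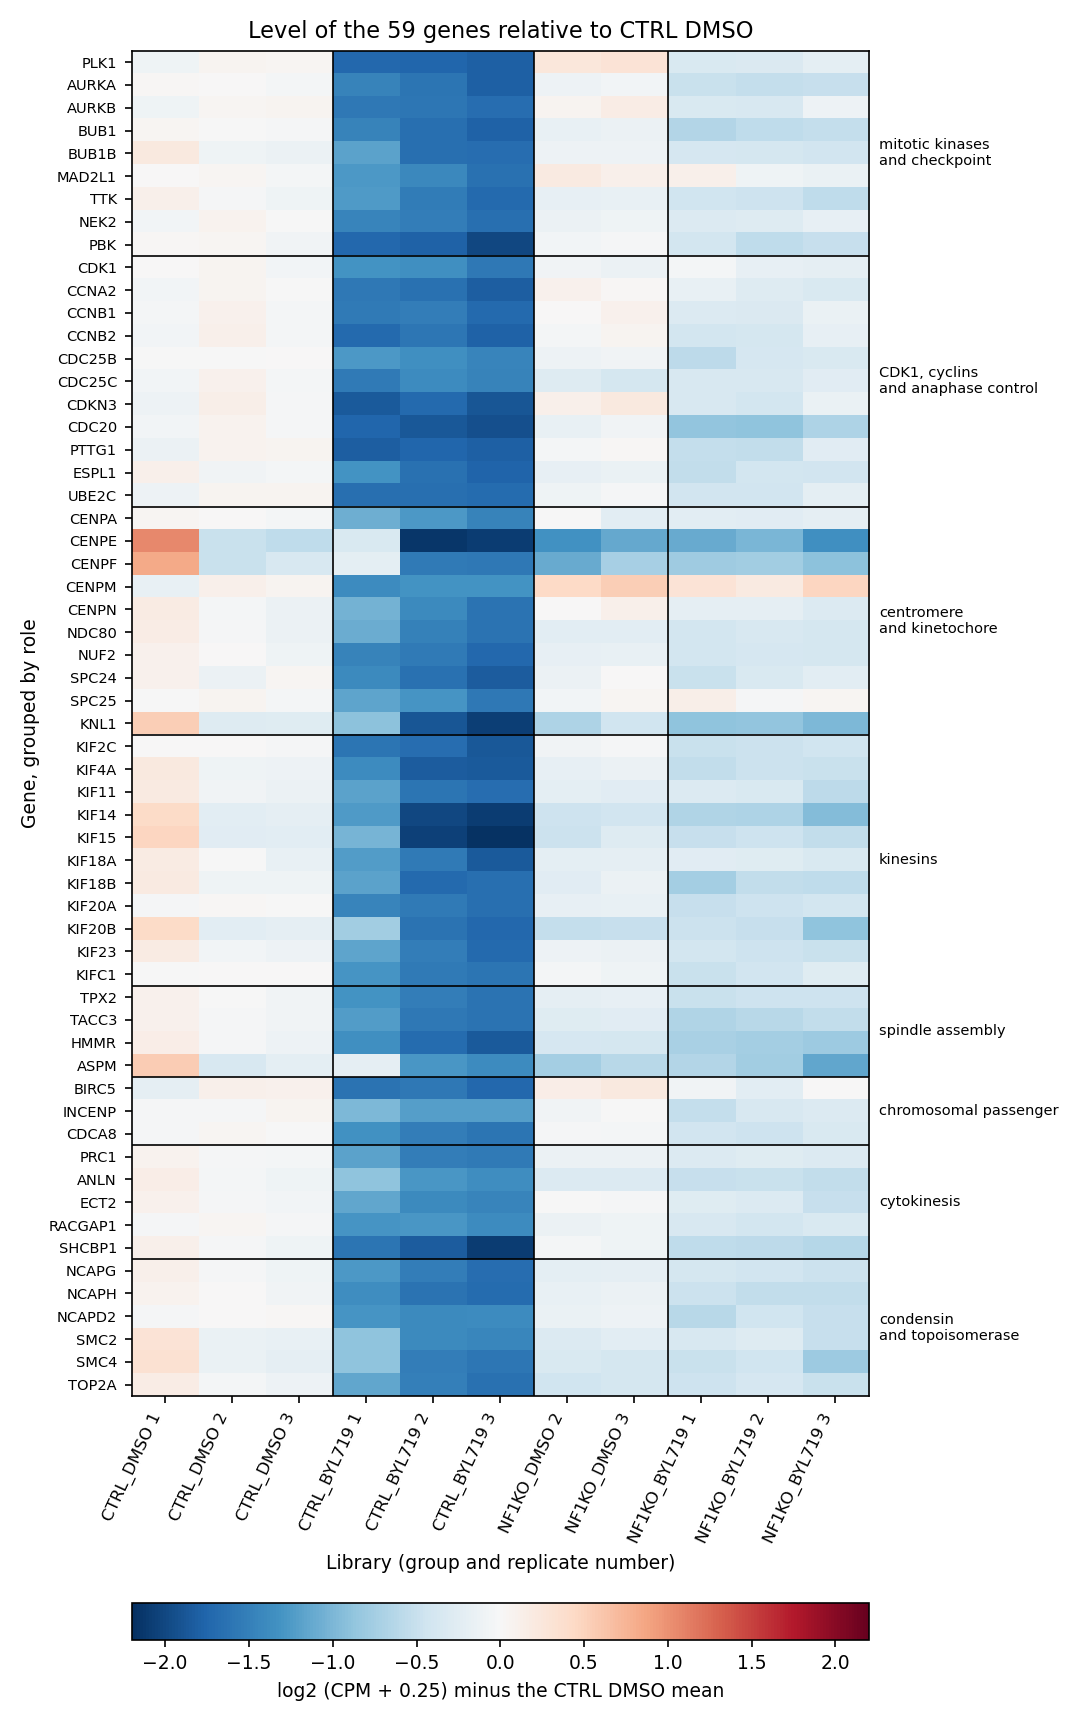
Colour map of log2 (CPM + 0.25) minus the CTRL DMSO mean of each gene, 59 genes in rows grouped by role and 11 libraries in columns grouped by condition. The CTRL BYL719 columns range from -2.18 to -0.20 and hold the darkest blues, while NF1KO BYL719 ranges from -1.35 to 0.47, and CENPE and CENPF are reddest in CTRL DMSO replicate 1.

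The mitotic kinases and checkpoint proteins (PLK1, AURKA, AURKB, BUB1, BUB1B, MAD2L1, TTK, NEK2, PBK) all fell under BYL719 in CTRL (9 of 9), with a median log2 fold change of -1.62. In NF1KO 5 fell with a median of -0.37, and the difference was called for all 9, between 1.19 and 1.41. PLK1 (Entrez 5347, chromosome 16, 23678889 to 23690367, RefSeq GRCh38.p14, as for all positions given here), the polo-like kinase that drives mitotic entry and spindle assembly, stood at 128, 142 and 140.3 CPM in CTRL DMSO, 41.3, 40.6 and 39.3 CPM in CTRL BYL719, 162 and 168 CPM in NF1KO DMSO and 108, 109.9 and 117 CPM in NF1KO BYL719. The 4 groups did not overlap: CTRL BYL719 was lowest, NF1KO BYL719 next and NF1KO DMSO highest. In CTRL the mean of PLK1 went from 137 ± 7.58 CPM in DMSO (SD, n = 3) to 40.4 ± 1.02 CPM under drug (SD, n = 3). In NF1KO its mean was 165 ± 4.22 CPM in DMSO (SD, n = 2) and 112 ± 4.88 CPM under drug (SD, n = 3). PLK1 had a log2 fold change of -1.76 ± 0.06 in CTRL (SE, adjusted p = 1.16e-08) and -0.56 ± 0.07 in NF1KO (adjusted p = 0.000338), a difference of 1.20 ± 0.09 (adjusted p = 2.62e-05).

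NEK2 (Entrez 4751, chromosome 1, 211658256 to 211675621), a kinase that separates centrosomes, had 158, 173 and 163 CPM in CTRL DMSO, 59.7, 57.3 and 52.1 CPM in CTRL BYL719, 151 and 153 CPM in NF1KO DMSO and 134, 134 and 145 CPM in NF1KO BYL719. The NF1KO libraries in BYL719 lay just below those in DMSO, while the CTRL groups were far apart. The NEK2 log2 change was -1.55 ± 0.07 in CTRL (adjusted p = 2.37e-08) and -0.14 ± 0.08 in NF1KO, where it did not pass the test (adjusted p = 0.204). The difference of 1.40 ± 0.10 was called (adjusted p = 2.21e-05). PBK (Entrez 55872, chromosome 8, 27809624 to 27837817), a mitotic serine/threonine kinase, had 112, 113 and 103 CPM in CTRL DMSO, 32.7, 31.5 and 27.1 CPM in CTRL BYL719, 104 and 107 CPM in NF1KO DMSO and 82.7, 74.5 and 77.1 CPM in NF1KO BYL719. BYL719 groups were below DMSO groups in both lines without overlap. PBK had a log2 fold change of -1.84 ± 0.08 in CTRL (adjusted p = 2.29e-08) and -0.44 ± 0.08 in NF1KO (adjusted p = 0.00464), with a difference of 1.41 ± 0.12 (adjusted p = 3.01e-05). TTK (Entrez 7272, chromosome 6, 80004649 to 80042527), the MPS1 checkpoint kinase, had 71.8, 65.7 and 62.8 CPM in CTRL DMSO, 27.8, 22.8 and 20.2 CPM in CTRL BYL719, 59.1 and 59.4 CPM in NF1KO DMSO and 49.3, 48.7 and 45.0 CPM in NF1KO BYL719. The order of the groups was CTRL DMSO, NF1KO DMSO, NF1KO BYL719 and CTRL BYL719, with no overlap. Its log2 change was -1.50 ± 0.10 in CTRL (adjusted p = 4.40e-07) and -0.31 ± 0.11 in NF1KO (adjusted p = 0.0710, and 0.00343 with the replicate block), and the difference was 1.19 ± 0.15 (adjusted p = 0.000439). ESCO2, which overlaps PBK, had 39.4% of its counts. Of the other kinases, AURKA (the spindle pole Aurora kinase) went from a mean of 268 to 87.5 CPM in CTRL and from 252 to 189 CPM in NF1KO, and fell in both lines. AURKB, the Aurora kinase of the centromere, and BUB1, a checkpoint kinase, fell, with log2 fold changes of -1.62 and -1.64 in CTRL and of -0.37 and -0.43 in NF1KO. BUB1B and MAD2L1, which form part of the checkpoint complex that restrains CDC20, fell in CTRL, with log2 fold changes of -1.50 and -1.44. Their log2 changes in NF1KO, -0.29 and -0.20, did not pass the test.

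**Figure D3:**
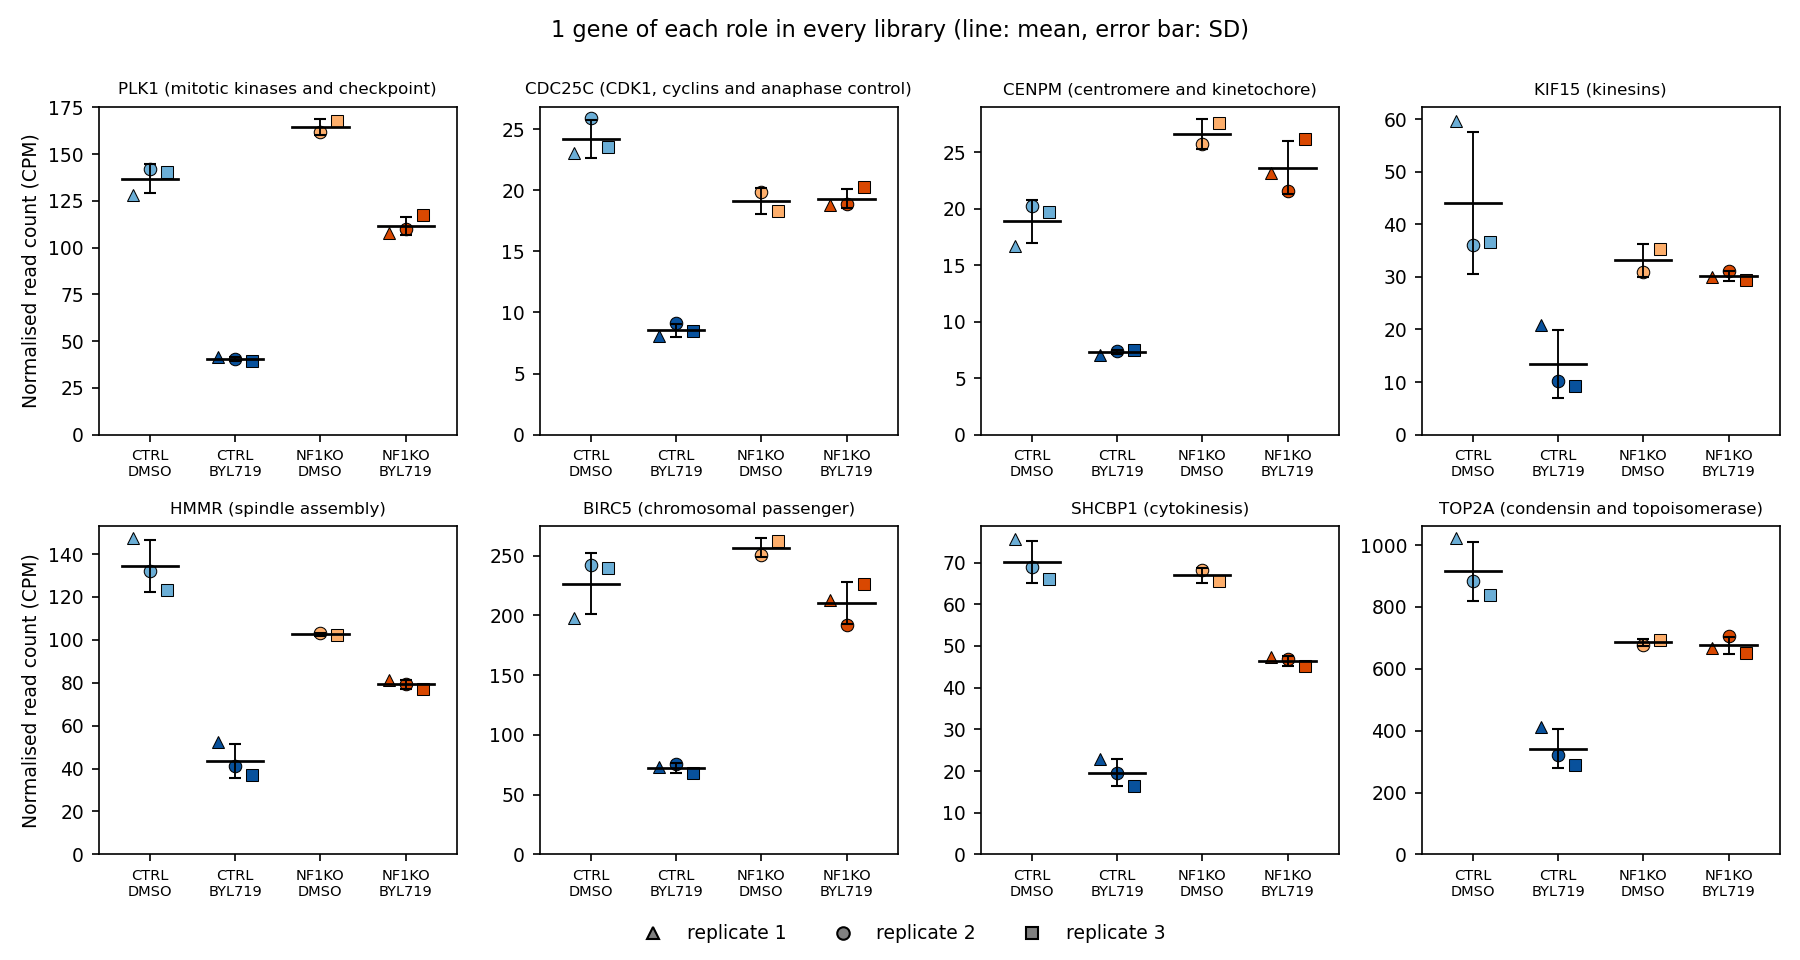
Normalised read counts (CPM, linear y axes starting at 0) of 1 gene from each of the 8 roles in the 11 libraries, with triangles, circles and squares for replicates 1, 2 and 3, a line at the group mean and SD error bars. In each panel CTRL BYL719 is the lowest group, for example 39.3 to 41.3 CPM for PLK1 against 108 to 117 CPM in NF1KO BYL719.

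CDK1, its cyclins and phosphatases and the genes of anaphase onset had the lowest median of the 8 roles in CTRL, -1.67 over 11 genes, and all 11 fell. In NF1KO 8 of the 11 fell, with a median of -0.32, and the difference was called for all 11. CDC20, the activator of the anaphase-promoting complex, had the largest fall of the 59 genes in both lines, from 199.9 to 55.3 CPM in CTRL and from 184 to 114 CPM in NF1KO, which left 27.7% and 62.1% of the DMSO level. CDC20 had a log2 fold change of -1.85 ± 0.08 in CTRL (adjusted p = 2.15e-08) and -0.69 ± 0.08 in NF1KO (adjusted p = 0.000319). CDK1, the kinase at the centre of this group, went from 384 ± 18.0 to 145 ± 14 CPM in CTRL (SD, n = 3 each) and from 359 ± 10.1 (SD, n = 2) to 349 ± 21.1 CPM (SD, n = 3) in NF1KO. CDK1 thus had a log2 fold change of -1.41 ± 0.08 in CTRL (adjusted p = 1.06e-07), while its change of -0.04 ± 0.09 in NF1KO did not pass the test (adjusted p = 0.794). The cyclins CCNA2, CCNB1 and CCNB2 fell in both lines, with log2 fold changes of -1.68, -1.60 and -1.70 in CTRL and of -0.32, -0.31 and -0.33 in NF1KO. EXOSC9, which overlaps CCNA2, had 24.9% of its counts. PTTG1 (securin) fell, with log2 fold changes of -1.79 and -0.43, and CDKN3, a phosphatase of CDK1 and CDK2, fell, with log2 fold changes of -1.81 and -0.46. ESPL1 (separase) fell, with a log2 fold change of -1.57 in CTRL, and its change of -0.29 in NF1KO did not pass the test.

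CDC25C (Entrez 995, chromosome 5, 138285265 to 138338355), a phosphatase that activates CDK1, had the largest called difference of this role. It stood at 23.0, 25.9 and 23.6 CPM in CTRL DMSO, 8.04, 9.11 and 8.51 CPM in CTRL BYL719, 19.9 and 18.3 CPM in NF1KO DMSO and 18.8, 18.9 and 20.2 CPM in NF1KO BYL719. The NF1KO groups overlapped and lay below all CTRL DMSO libraries. CDC25C had a log2 fold change of -1.50 ± 0.08 in CTRL (adjusted p = 6.36e-08), changed by 0.02 ± 0.09 in NF1KO without passing the test (adjusted p = 0.925), and the difference was 1.51 ± 0.12 (adjusted p = 2.61e-05). FAM53C, whose annotated position overlaps CDC25C, had 464% of its counts, and reads of overlapping genes may be shared because strand use in counting is not given in the sources used here. CDC25B (Entrez 994, chromosome 20, 3786951 to 3806115), a related CDK1 activator, had 123, 124 and 125 CPM in CTRL DMSO, 51.2, 48.6 and 45.1 CPM in CTRL BYL719, 115 and 118 CPM in NF1KO DMSO and 83.0, 95.8 and 97.9 CPM in NF1KO BYL719. Both drug groups lay below both DMSO groups. CDC25B had a log2 fold change of -1.36 ± 0.07 in CTRL (adjusted p = 7.23e-08) and -0.34 ± 0.08 in NF1KO (adjusted p = 0.0137), and its difference of 1.02 ± 0.11 was the smallest of the role (adjusted p = 0.000131). UBE2C (Entrez 11065, chromosome 20, 45812644 to 45816952), the ubiquitin-conjugating enzyme of the anaphase-promoting complex, had 153, 174 and 174 CPM in CTRL DMSO, 52.8, 52.7 and 51.4 CPM in CTRL BYL719, 155 and 163 CPM in NF1KO DMSO and 125, 125 and 144 CPM in NF1KO BYL719. CTRL BYL719 lay far below the other 3 groups. UBE2C had a log2 fold change of -1.67 ± 0.08 in CTRL (adjusted p = 2.66e-08) and -0.28 ± 0.08 in NF1KO (adjusted p = 0.0357), with a difference of 1.40 ± 0.11 (adjusted p = 3.01e-05). The NF1KO calls rest on few libraries: without NF1KO DMSO replicate 3 the adjusted p was 0.113 for CDC25B and 0.236 for UBE2C, and without replicate 2 it was 0.0786 and 0.110. UBE2C was lost also without NF1KO BYL719 replicate 1 (0.101) or 2 (0.119), and with all libraries kept under upper-quartile scaling (0.0533).

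All 10 centromere and kinetochore genes fell in CTRL, with a median of -1.38. In NF1KO the median was -0.16 and 0 of 10 were called by edgeR, against 4 of 10 without both CTRL replicate 1 libraries and 3 (CENPN, NUF2 and KNL1) with the replicate number as a block. The difference was called for 7 of 10, and the 3 exceptions, CENPE, CENPF and KNL1, are long mRNAs. SPC25 (Entrez 57405, chromosome 2, 168861521 to 168890430), a subunit of the NDC80 complex that grips microtubules, had 30.6, 32.4 and 30.0 CPM in CTRL DMSO, 13.7, 12.4 and 10.3 CPM in CTRL BYL719, 29.7 and 31.9 CPM in NF1KO DMSO and 33.7, 30.5 and 31.8 CPM in NF1KO BYL719. Only CTRL BYL719 was set apart, and the other 3 groups overlapped. SPC25 had a log2 fold change of -1.35 ± 0.10 in CTRL (adjusted p = 5.56e-07), its change in NF1KO was 0.06 ± 0.10 (adjusted p = 0.757), and the difference was 1.41 ± 0.14 (adjusted p = 8.69e-05). The other NDC80 complex genes NDC80, NUF2 and SPC24 fell, with log2 fold changes of -1.40, -1.59 and -1.64 in CTRL, and their values in NF1KO were -0.15, -0.22 and -0.30, none called. CENPM (Entrez 79019, chromosome 22, 41927196 to 41947152), part of the inner kinetochore network, had 16.7, 20.3 and 19.7 CPM in CTRL DMSO, 7.07, 7.42 and 7.46 CPM in CTRL BYL719, 25.7 and 27.6 CPM in NF1KO DMSO and 23.2, 21.6 and 26.2 CPM in NF1KO BYL719. Every NF1KO library, with or without drug, lay above every CTRL library. CENPM had a log2 fold change of -1.37 ± 0.10 in CTRL (adjusted p = 5.46e-07) and its value in NF1KO was -0.17 ± 0.10 (adjusted p = 0.271), a difference of 1.20 ± 0.14 (adjusted p = 0.000253).

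CENPN (Entrez 55839, chromosome 16, 81007214 to 81033107), which binds the centromeric nucleosome, had 98.8, 84.7 and 79.3 CPM in CTRL DMSO, 42.2, 33.1 and 28.2 CPM in CTRL BYL719, 87.3 and 94.2 CPM in NF1KO DMSO and 76.4, 76.0 and 70.9 CPM in NF1KO BYL719. The DMSO groups of the 2 lines overlapped, and CTRL BYL719 was lowest. CENPN had a log2 fold change of -1.34 ± 0.13 in CTRL (adjusted p = 5.55e-06), with -0.29 ± 0.14 in NF1KO (adjusted p = 0.173, and 0.0114 with the replicate block) and a difference of 1.06 ± 0.19 (adjusted p = 0.00377). CENPA, the histone variant that marks centromeres, went from 27.2 to 11.2 CPM in CTRL and from 25.1 to 23.3 CPM in NF1KO. CENPE (Entrez 1062, chromosome 4, 103105811 to 103198343), the kinetochore motor that brings chromosomes to the spindle equator, had 129, 43.9 and 41.7 CPM in CTRL DMSO, 49.0, 13.8 and 14.4 CPM in CTRL BYL719, 24.6 and 28.3 CPM in NF1KO DMSO and 28.6, 30.9 and 24.2 CPM in NF1KO BYL719. Replicate 1 was far above replicates 2 and 3 in both CTRL groups, and CTRL BYL719 replicate 1 lay above CTRL DMSO replicates 2 and 3. CENPE had a log2 fold change of -1.48 ± 0.50 in CTRL (adjusted p = 0.0299), and the difference between lines, 1.55 ± 0.75, was not called (adjusted p = 0.268). Without both CTRL replicate 1 libraries the CENPE fall in CTRL was -1.60 ± 0.11 (adjusted p = 1.11e-07) and the difference 1.68 ± 0.14 (adjusted p = 5.16e-06). The CTRL call was lost without CTRL DMSO replicate 1 alone (adjusted p = 0.173), or without BYL719 replicate 2 (0.102) or 3 (0.104) of that line. Each of these fits leaves a CTRL library without its same-numbered partner. By replicate number, CENPE in CTRL went from 129 to 49.0, from 43.9 to 13.8 and from 41.7 to 14.4 CPM. With the replicate number as a block in the CTRL libraries alone, all 59 genes fell in CTRL, CENPE among them. Without CTRL BYL719 replicate 1 alone the difference was 2.42 (adjusted p = 0.0124), and all 59 genes were called for it. That fit too leaves a library unpartnered: it keeps CTRL DMSO replicate 1 (129 CPM) without CTRL BYL719 replicate 1 (49.0 CPM). CENPF, a large kinetochore protein, and KNL1, the scaffold that recruits BUB1, were called for the difference without both of those libraries, where the values were 1.24 ± 0.14 (adjusted p = 3.70e-05) and 1.36 ± 0.12 (adjusted p = 6.64e-06), against 1.19 ± 0.57 (adjusted p = 0.266) and 1.22 ± 0.43 (adjusted p = 0.106) with them.

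All 11 mitotic kinesins, the motors that build and move the spindle, fell in CTRL with a median of -1.54. In NF1KO 3 fell (KIF2C, KIF20A and KIFC1), the median was -0.32, and the difference was called for 10 of 11. KIF20B, a motor of the central spindle, was the exception (1.25 ± 0.36, adjusted p = 0.0535). KIF15 (Entrez 56992, chromosome 3, 44761794 to 44868687), a motor that keeps the spindle bipolar, had 59.7, 36.0 and 36.7 CPM in CTRL DMSO, 20.9, 10.1 and 9.30 CPM in CTRL BYL719, 31.0 and 35.4 CPM in NF1KO DMSO and 30.0, 31.1 and 29.4 CPM in NF1KO BYL719. CTRL replicate 1 was highest in both CTRL groups, and no CTRL BYL719 library reached the NF1KO libraries. KIF15 had a log2 fold change of -1.71 ± 0.27 in CTRL (adjusted p = 0.000330), its value in NF1KO was -0.14 ± 0.30 (adjusted p = 0.790), and its difference of 1.57 ± 0.41, the largest of the 59, was called with an adjusted p of 0.0303. That call was lost without any 1 of 7 libraries: CTRL BYL719 replicate 2 (adjusted p = 0.0679) or 3 (0.0601), NF1KO DMSO replicate 2 (0.145) or 3 (0.0994), and NF1KO BYL719 replicate 1 (0.0638), 2 (0.0682) or 3 (0.0543). Without both CTRL replicate 1 libraries it was 1.77 ± 0.11 (adjusted p = 1.29e-06).

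KIF18A (Entrez 81930, chromosome 11, 28020619 to 28108156), which damps chromosome movements at the spindle equator, had 61.3, 53.9 and 48.6 CPM in CTRL DMSO, 23.1, 18.3 and 14.9 CPM in CTRL BYL719, 46.8 and 47.3 CPM in NF1KO DMSO and 45.5, 45.3 and 42.8 CPM in NF1KO BYL719. Both NF1KO groups lay between the CTRL groups and close to each other. KIF18A had a log2 fold change of -1.54 ± 0.13 in CTRL (adjusted p = 2.78e-06), with -0.08 ± 0.14 in NF1KO (adjusted p = 0.757) and a difference of 1.46 ± 0.20 (adjusted p = 0.000601). KIF18B (Entrez 146909, chromosome 17, 44924711 to 44947773), a motor on astral microtubules, had 70.0, 57.4 and 57.3 CPM in CTRL DMSO, 27.0, 18.4 and 19.3 CPM in CTRL BYL719, 51.6 and 55.9 CPM in NF1KO DMSO and 36.2, 41.8 and 41.6 CPM in NF1KO BYL719. NF1KO BYL719 lay below NF1KO DMSO and above CTRL BYL719 with no overlap. KIF18B had a log2 fold change of -1.51 ± 0.14 in CTRL (adjusted p = 3.71e-06), its value in NF1KO was -0.43 ± 0.15 (adjusted p = 0.0620, and 0.0124 with the replicate block), and its difference was 1.08 ± 0.20 (adjusted p = 0.00497). KIF11, the motor that pushes spindle poles apart, went from 325 to 117 CPM in CTRL and from 275 to 245 CPM in NF1KO. KIF20A, KIF23 and KIF14, motors of cytokinesis, fell in CTRL, with log2 fold changes of -1.56, -1.45 and -1.77. The microtubule depolymerase KIF2C, the minus-end motor KIFC1 and the chromosome-arm motor KIF4A fell in CTRL, with log2 fold changes of -1.71, -1.49 and -1.69, and their values in NF1KO were -0.42 and -0.32, both called, and -0.35, not called. The KIF14 difference (1.44 ± 0.33, adjusted p = 0.0168) was lost without either NF1KO DMSO library. KIF20B was called higher in NF1KO under BYL719 (adjusted p = 0.0378), a call lost in 6 of the 11 fits without 1 library, those without CTRL BYL719 replicates 2 or 3, NF1KO DMSO replicates 2 or 3, or NF1KO BYL719 replicates 1 or 2. CDC23 overlaps KIF20A and had 60.0% of its counts.

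The 4 spindle assembly genes all fell in CTRL, with a median of -1.48, and TPX2 and TACC3 fell in NF1KO. TPX2 (Entrez 22974, chromosome 20, 31739290 to 31801800), which activates Aurora A on the spindle, had 601, 561 and 537 CPM in CTRL DMSO, 228, 197 and 184 CPM in CTRL BYL719, 493 and 499 CPM in NF1KO DMSO and 404, 413 and 414 CPM in NF1KO BYL719. The 4 groups did not overlap. TPX2 had a log2 fold change of -1.48 ± 0.08 in CTRL (adjusted p = 7.23e-08) and -0.27 ± 0.09 in NF1KO (adjusted p = 0.0481), with a difference of 1.21 ± 0.12 (adjusted p = 7.92e-05). TACC3, which stabilises spindle microtubules, fell, with a log2 fold change of -1.48 in CTRL and -0.35 in NF1KO, and TMEM129, which overlaps it, had 38.5% of its counts. The NF1KO call of TPX2 sat at the threshold and was lost in 8 of 11 fits without 1 library (adjusted p = 0.109 without NF1KO BYL719 replicate 1). With all libraries kept it was lost under upper-quartile scaling (0.0606), without a filter (0.0516) and with the stricter filter (0.0540). HMMR (Entrez 3161, chromosome 5, 163460632 to 163491941), a spindle pole protein also known as a hyaluronan receptor, had 147, 132 and 123 CPM in CTRL DMSO, 52.5, 41.3 and 36.8 CPM in CTRL BYL719, 103 and 102 CPM in NF1KO DMSO and 81.5, 79.2 and 77.2 CPM in NF1KO BYL719. NF1KO DMSO lay below CTRL DMSO, and the drug groups were below their controls in both lines. HMMR had a log2 fold change of -1.62 ± 0.11 in CTRL (adjusted p = 4.68e-07), with -0.37 ± 0.12 in NF1KO (adjusted p = 0.0533, and 0.00187 with the replicate block) and a difference of 1.25 ± 0.17 (adjusted p = 0.000552). ASPM (Entrez 259266, chromosome 1, 197084127 to 197146669), a spindle pole protein with the longest mRNA of the set, had 281, 149 and 164 CPM in CTRL DMSO, 165, 78.0 and 72.5 CPM in CTRL BYL719, 112 and 124 CPM in NF1KO DMSO and 121, 111 and 85.3 CPM in NF1KO BYL719. CTRL BYL719 replicate 1 lay above CTRL DMSO replicates 2 and 3, so the CTRL groups overlapped. ASPM had a log2 fold change of -0.91 ± 0.30 in CTRL (adjusted p = 0.0281) and its difference of 0.75 ± 0.45 was not called (adjusted p = 0.398). Without both CTRL replicate 1 libraries ASPM had a log2 fold change of -1.06 ± 0.13 in CTRL (adjusted p = 1.98e-05), and the difference was 0.89 ± 0.17 (adjusted p = 0.00313). Without 1 library alone the CTRL call of ASPM was lost for CTRL DMSO replicate 1 (adjusted p = 0.121) and CTRL BYL719 replicates 2 (0.102) and 3 (0.105). It held with the replicate number as a block in the CTRL libraries alone.

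The chromosomal passenger genes, whose products carry Aurora B to the inner centromere, fell in CTRL (3 of 3), and INCENP and CDCA8 fell in NF1KO. BIRC5 (Entrez 332, chromosome 17, 78214253 to 78225635), survivin, had 198, 243 and 239.7 CPM in CTRL DMSO, 73.1, 75.6 and 68.1 CPM in CTRL BYL719, 251 and 262 CPM in NF1KO DMSO and 213, 192 and 226 CPM in NF1KO BYL719. NF1KO BYL719 overlapped CTRL DMSO, and CTRL BYL719 was far below every other group. BIRC5 had a log2 fold change of -1.65 ± 0.09 in CTRL (adjusted p = 8.24e-08), with -0.29 ± 0.10 in NF1KO (adjusted p = 0.0637, and 0.0249 with only NF1KO libraries in the fit) and a difference of 1.36 ± 0.14 (adjusted p = 7.92e-05). INCENP (Entrez 3619, chromosome 11, 62124011 to 62153169), the scaffold of the complex, had 73.1, 72.5 and 76.9 CPM in CTRL DMSO, 37.2, 31.9 and 32.0 CPM in CTRL BYL719, 70.3 and 74.0 CPM in NF1KO DMSO and 51.8, 58.2 and 60.3 CPM in NF1KO BYL719. The DMSO groups overlapped and both drug groups lay below them. INCENP had a log2 fold change of -1.14 ± 0.08 in CTRL (adjusted p = 5.04e-07) and -0.35 ± 0.09 in NF1KO (adjusted p = 0.0176), and its difference of 0.79 ± 0.12 was the smallest of those called (adjusted p = 0.00117). CDCA8 (Entrez 55143, chromosome 1, 37692516 to 37709719), borealin, had 122, 128 and 123 CPM in CTRL DMSO, 49.2, 43.0 and 40.5 CPM in CTRL BYL719, 123 and 121 CPM in NF1KO DMSO and 92.5, 91.1 and 98.6 CPM in NF1KO BYL719. Its DMSO groups overlapped, and NF1KO BYL719 lay between them and CTRL BYL719. CDCA8 had a log2 fold change of -1.49 ± 0.07 in CTRL (adjusted p = 4.20e-08) and -0.37 ± 0.08 in NF1KO (adjusted p = 0.00792), with a difference of 1.12 ± 0.11 (adjusted p = 7.86e-05). The NF1KO calls of INCENP and CDCA8 were lost without NF1KO DMSO replicate 2 (adjusted p = 0.0742 and 0.0731) or replicate 3 (0.152 and 0.0674), and that of INCENP without NF1KO BYL719 replicate 1 (0.0555).

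Of the 5 cytokinesis genes all fell in CTRL, with a median of -1.33, and ECT2, RACGAP1 and SHCBP1 fell in NF1KO. SHCBP1 (Entrez 79801, chromosome 16, 46578591 to 46621379), a protein of the central spindle and midbody, had 75.7, 68.9 and 66.0 CPM in CTRL DMSO, 22.9, 19.6 and 16.3 CPM in CTRL BYL719, 68.3 and 65.6 CPM in NF1KO DMSO and 47.3, 46.8 and 45.1 CPM in NF1KO BYL719. The DMSO groups of the lines overlapped, and the drug groups were below them and apart from each other. SHCBP1 had a log2 fold change of -1.84 ± 0.11 in CTRL (adjusted p = 1.06e-07) and -0.53 ± 0.11 in NF1KO (adjusted p = 0.00739), with a difference of 1.31 ± 0.15 (adjusted p = 0.000240). Its NF1KO call was lost without NF1KO DMSO replicate 2 (adjusted p = 0.0710) or 3 (0.0561). PRC1 (Entrez 9055, chromosome 15, 90966040 to 90994535), which bundles the microtubules of the central spindle, had 318, 296 and 292 CPM in CTRL DMSO, 133, 105 and 103 CPM in CTRL BYL719, 277 and 276 CPM in NF1KO DMSO and 246, 252 and 246 CPM in NF1KO BYL719. NF1KO BYL719 lay a little below NF1KO DMSO, and CTRL BYL719 was lowest. PRC1 had a log2 fold change of -1.41 ± 0.09 in CTRL (adjusted p = 2.25e-07), with -0.16 ± 0.10 in NF1KO (adjusted p = 0.301, and 0.0279 without both CTRL replicate 1 libraries) and a difference of 1.26 ± 0.13 (adjusted p = 0.000124). ANLN (Entrez 54443, chromosome 7, 36389862 to 36453791), the anillin scaffold of the contractile ring, had 593, 521 and 506 CPM in CTRL DMSO, 293, 221 and 209 CPM in CTRL BYL719, 439 and 438 CPM in NF1KO DMSO and 377, 383 and 369 CPM in NF1KO BYL719. The groups did not overlap, and the knockout line was below the control line in DMSO and above it in BYL719. ANLN had a log2 fold change of -1.17 ± 0.11 in CTRL (adjusted p = 6.53e-06), with -0.22 ± 0.12 in NF1KO (adjusted p = 0.238, and 0.0269 with the replicate block) and a difference of 0.94 ± 0.17 (adjusted p = 0.00371). ECT2 and RACGAP1, which switch on RHOA at the cleavage furrow, fell, with log2 fold changes of -1.32 and -1.33 in CTRL and of -0.34 and -0.25 in NF1KO.

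The condensin I genes and TOP2A, which compact and untangle chromosomes, fell in CTRL (6 of 6, median -1.39), and NCAPH and NCAPD2 fell in NF1KO (median of the 6 -0.21). TOP2A (Entrez 7153, chromosome 17, 40388525 to 40417896), topoisomerase II alpha, had 1023, 884 and 839 CPM in CTRL DMSO, 413, 322 and 290.5 CPM in CTRL BYL719, 677 and 694 CPM in NF1KO DMSO and 669, 706 and 652 CPM in NF1KO BYL719. The NF1KO groups overlapped and lay between the CTRL groups. TOP2A had a log2 fold change of -1.42 ± 0.12 in CTRL (adjusted p = 1.96e-06), with -0.02 ± 0.13 in NF1KO (adjusted p = 0.939) and a difference of 1.40 ± 0.18 (adjusted p = 0.000375). NCAPG (Entrez 64151, chromosome 4, 17810979 to 17844865), a condensin I subunit, had 139, 127 and 120.5 CPM in CTRL DMSO, 53.2, 44.6 and 39.9 CPM in CTRL BYL719, 110.1 and 112 CPM in NF1KO DMSO and 98.3, 96.2 and 92.7 CPM in NF1KO BYL719. NF1KO BYL719 was below NF1KO DMSO and well above CTRL BYL719. NCAPG had a log2 fold change of -1.49 ± 0.10 in CTRL (adjusted p = 2.32e-07), with -0.21 ± 0.10 in NF1KO (adjusted p = 0.175, and 0.0149 with the replicate block) and a difference of 1.27 ± 0.14 (adjusted p = 0.000159). NCAPD2 (Entrez 9918, chromosome 12, 6494102 to 6531955), a condensin I subunit as well, had 128, 131 and 132 CPM in CTRL DMSO, 52.8, 49.0 and 50.05 CPM in CTRL BYL719, 117 and 121 CPM in NF1KO DMSO and 85.5, 95.5 and 91.8 CPM in NF1KO BYL719. The 4 groups did not overlap, with CTRL DMSO highest. NCAPD2 had a log2 fold change of -1.36 ± 0.06 in CTRL (adjusted p = 2.64e-08) and -0.39 ± 0.07 in NF1KO (adjusted p = 0.00249), with a difference of 0.97 ± 0.09 (adjusted p = 6.11e-05). NCAPH, the kleisin subunit of condensin I, fell, with log2 fold changes of -1.56 and -0.37. TRIM59-IFT80, which overlaps SMC4, had 23.1% of its counts. The shared condensin ATPases SMC2 and SMC4 fell, with log2 fold changes of -1.24 and -1.32 in CTRL, and their values in NF1KO were -0.11 and -0.21, neither called. The SMC4 difference (1.12 ± 0.28, adjusted p = 0.0266) was lost in 6 of the 11 fits without 1 library, and that of SMC2 (1.13 ± 0.23, adjusted p = 0.00878) without NF1KO DMSO replicate 2.

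The 5 genes that differed between the lines in DMSO did so by small amounts. PLK1 was higher in NF1KO by a log2 difference of 0.27 ± 0.07 (adjusted p = 0.0172) and CENPM by 0.50 ± 0.10 (adjusted p = 0.00462). CDC25C was lower, with a log2 difference of -0.34 ± 0.09 (adjusted p = 0.0161), HMMR of -0.39 ± 0.12 (adjusted p = 0.0451) and TOP2A of -0.42 ± 0.13 (adjusted p = 0.0423). These calls depended on single libraries, and the NF1KO DMSO group holds 2. Without NF1KO DMSO replicate 3 the log2 differences were 0.24 for PLK1, 0.45 for CENPM, -0.28 for CDC25C, -0.38 for HMMR and -0.43 for TOP2A. Without NF1KO DMSO replicate 2 they were 0.29 for PLK1, -0.40 for CDC25C, -0.39 for HMMR and -0.40 for TOP2A. Each of these fits leaves 1 library in the group. Most or all of the 5 calls were lost in them, and fewer of all tested genes were called as well. PLK1 was lost also without CTRL DMSO replicate 1 (0.0531) and CDC25C without CTRL DMSO replicate 2 (0.0611). HMMR and TOP2A held only without CTRL DMSO replicate 3, CTRL BYL719 replicate 1 or CTRL BYL719 replicate 3. Without CTRL BYL719 replicate 1, 10 of the 59 genes were called lower in NF1KO, the 3 above and CENPE, CENPF, KNL1, KIF20B, TACC3, ASPM and ANLN. The same fit called 2213 of 15990 tested genes lower. CTRL BYL719 replicate 1 is in neither group compared and enters through the estimates that the fit shares over all libraries.

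Across the 59 genes the order of the 4 group means was nearly uniform. CTRL BYL719 had the lowest mean for 59 of 59 genes and NF1KO BYL719 the second lowest for 54. In 45 genes the order from high to low was CTRL DMSO, NF1KO DMSO, NF1KO BYL719 and CTRL BYL719, and in 9 NF1KO DMSO was highest, followed by CTRL DMSO. Those neighbours at the top of the order, the DMSO groups of the lines, differed by test for 5 genes. NF1KO BYL719 and NF1KO DMSO differed for 25, NF1KO BYL719 and CTRL BYL719 for 55. In 54 genes every NF1KO BYL719 library lay below every CTRL DMSO library, and the 5 others overlapped or lay above. The percent of the DMSO level left in NF1KO ran from 62.1% (CDC20) over 67.9% (PLK1) and 69.3% (SHCBP1) to 104% (SPC25), 105% (CENPE) and 107% (CENPF). Genes with large falls in CTRL tended to have large falls in NF1KO: over the 59 genes the log2 fold changes of the lines had a Pearson r of 0.579 and a Spearman rho of 0.583, and 0.564 and 0.563 without both CTRL replicate 1 libraries. This is a description over genes measured in the same libraries, with no test.

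**Figure D4:**
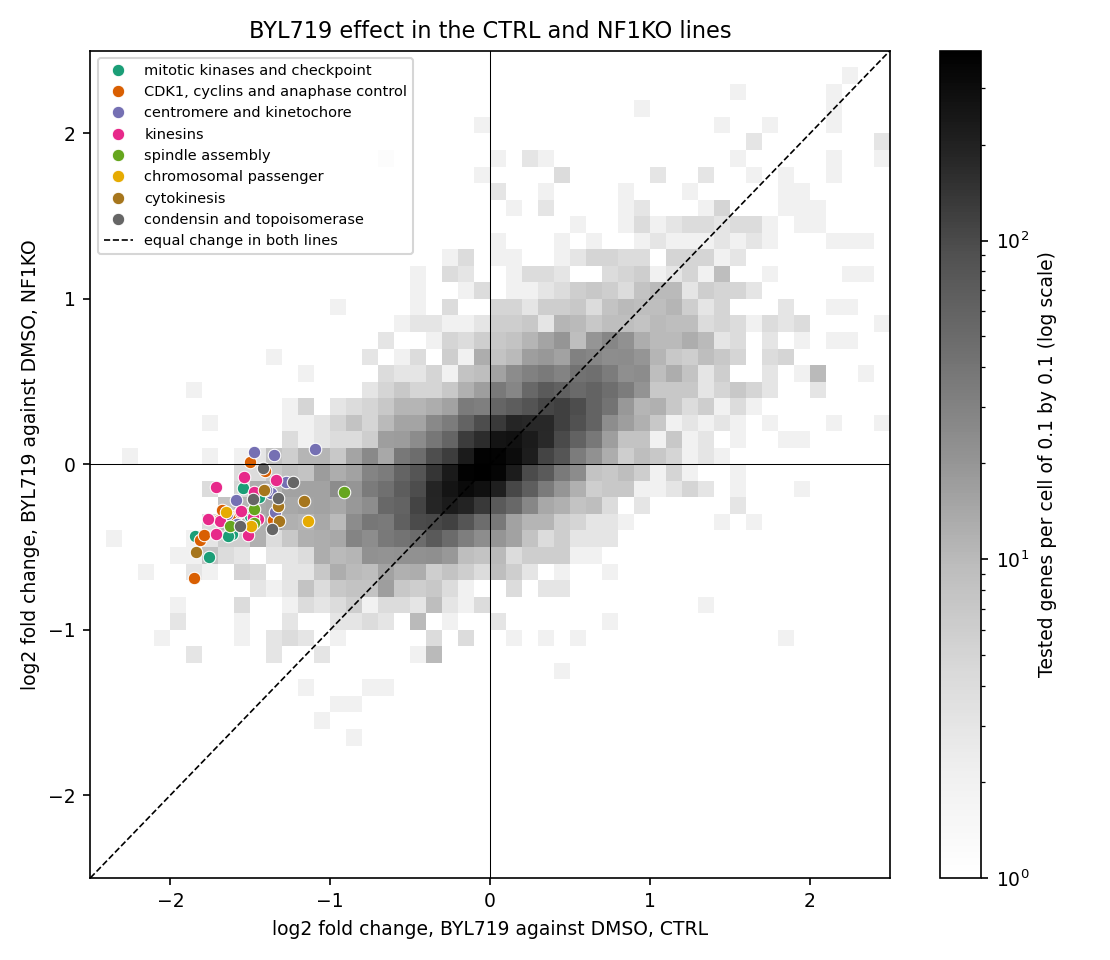
Log2 fold change of BYL719 against DMSO in CTRL (x axis) and in NF1KO (y axis), with the 59 genes coloured by role over a grey density of the tested genes (15929 of 16081 lie in the plotted range, grey on a log scale) and a dashed line where both lines change equally. All 59 points lie at -0.91 (ASPM) or left of it on the x axis and above the dashed line, between -0.69 and 0.09 on the y axis.

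Related lists that hold none of the 59 genes were examined for the same pattern. Of 30 other mitotic genes, 30 fell in CTRL (median -1.47), 10 fell in NF1KO (median -0.28), and the difference was called for 28 (median 1.20), all but CKAP5 and MKI67. Without both CTRL replicate 1 libraries 20 fell in NF1KO and the difference was called for all 30. Examples are cyclin F (CCNF), with -1.16 ± 0.05 in CTRL (adjusted p = 3.14e-08) and -0.36 ± 0.06 in NF1KO (adjusted p = 0.00207), and the spindle protein FAM83D, with -1.47 ± 0.07 in CTRL (adjusted p = 4.20e-08) and -0.18 ± 0.08 in NF1KO (adjusted p = 0.145). Of 28 genes of the constitutive centromere and outer kinetochore, 24 fell in CTRL (median -0.92), 4 fell in NF1KO (median -0.12), and the difference was called for 19 (median 0.74). Without both CTRL replicate 1 libraries these counts were 25, 11 and 21. ZWINT, which links KNL1 to the checkpoint, had a log2 fold change of -1.37 ± 0.08 in CTRL (adjusted p = 9.21e-08). CENPC, CENPT, PMF1 and MAD1L1 did not pass the test in CTRL, with log2 values of -0.35, -0.08, 0.03 and -0.11. All 3 condensin II genes fell in CTRL (median -1.13) and none in NF1KO, and the difference was called for all 3, from 0.45 in NCAPH2 to 1.26 in NCAPG2. Without both CTRL replicate 1 libraries 1 of the 3 fell in NF1KO.

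Of 15 subunits of the anaphase-promoting complex itself, 7 fell and 2 rose in CTRL (median -0.21), 2 fell in NF1KO (median -0.16), and the difference was called for CDC27 alone (0.46 ± 0.11, adjusted p = 0.0248). Without both CTRL replicate 1 libraries 5 fell in NF1KO, and the difference was called higher for 1 and lower for 1. CDC27 had a log2 fold change of -0.67 ± 0.08 in CTRL (adjusted p = 2.20e-05), while ANAPC13 rose, with a log2 fold change of 0.54 ± 0.09 (adjusted p = 0.000548). Of 15 cohesin genes, 9 fell and 2 rose in CTRL (median -0.46), and the difference was called for 7 (median 0.53). Without both CTRL replicate 1 libraries 10 fell and 2 rose in CTRL, and the difference was called for 9. The cohesin regulators CDCA5 (sororin), SGO1 (shugoshin) and ESCO2 (an acetyltransferase of cohesin) fell, with log2 fold changes of -1.42, -1.73 and -1.37 in CTRL. The core subunit RAD21 fell, with a log2 fold change of -0.82, and STAG2, NIPBL, WAPL and ESCO1 did not pass the test. Of 12 centrosome genes 8 fell in CTRL (median -0.76), 2 fell in NF1KO (STIL and TUBG1), and the difference was called for 4. Without both CTRL replicate 1 libraries 11 fell in CTRL, 3 fell and 1 rose in NF1KO, and the difference was called for 10. PLK4, the kinase that starts centriole duplication, had a log2 fold change of -1.49 ± 0.11 in CTRL (adjusted p = 7.37e-07), and TUBG1 (gamma-tubulin) had a log2 fold change of -1.05 ± 0.06 in CTRL (adjusted p = 6.49e-08) and -0.55 ± 0.06 in NF1KO (adjusted p = 0.000176).

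Of 24 tested transport kinesin and dynein genes, 5 fell and 6 rose in CTRL (median -0.07), close to the shares over all tested genes (21.8% and 22.6%), 4 fell and 5 rose in NF1KO (median 0.00), and the smallest adjusted p for a difference between the lines was 0.101 (edgeR). Without both CTRL replicate 1 libraries 9 fell and 5 rose in CTRL, and 8 fell and 6 rose in NF1KO. The difference was then called higher in NF1KO for 3 and lower for 1. In that fit 3752 of 15941 tested genes fell and 3791 rose in CTRL, and the difference was called higher for 1393 and lower for 1018. The kinesin-2 adaptor KIFAP3 rose, with a log2 fold change of 0.49 ± 0.09 in CTRL (adjusted p = 0.000652) and the kinesin-1 light chain KLC1 had a log2 fold change of -0.44 ± 0.09 (adjusted p = 0.00185). Of 23 transcription regulators of the mitotic program, 13 fell and 3 rose in CTRL (median -0.37), 1 fell and 3 rose in NF1KO (median -0.14), and the difference was called for 10. Without both CTRL replicate 1 libraries 6 fell and 3 rose in NF1KO, and the difference was called for 11. FOXM1, an activator of G2 and mitotic genes, went from 197 ± 4.64 to 64.3 ± 5.69 CPM in CTRL (SD, n = 3 each) and from 181 ± 3.98 (SD, n = 2) to 133 ± 8.98 CPM (SD, n = 3) in NF1KO. FOXM1 had a log2 fold change of -1.61 ± 0.08 in CTRL (adjusted p = 3.23e-08) and -0.44 ± 0.08 in NF1KO (adjusted p = 0.00380), with a difference of 1.17 ± 0.11 (adjusted p = 7.05e-05). MYBL2 (B-MYB), LIN9 (a MuvB subunit) and E2F1 fell in CTRL, with log2 fold changes of -1.26 ± 0.07, -1.15 ± 0.09 and -1.17 ± 0.09, with adjusted p values of 6.67e-08, 8.91e-07 and 1.26e-06. Their values in NF1KO, -0.21, -0.25 and -0.16, did not pass the test, and the differences between lines were 1.05, 0.90 and 1.01, all called. The NF-Y subunits NFYA, NFYB and NFYC had log2 values of -0.05, 0.44 and -0.03 in CTRL, of which NFYB rose.

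**Figure D5:**
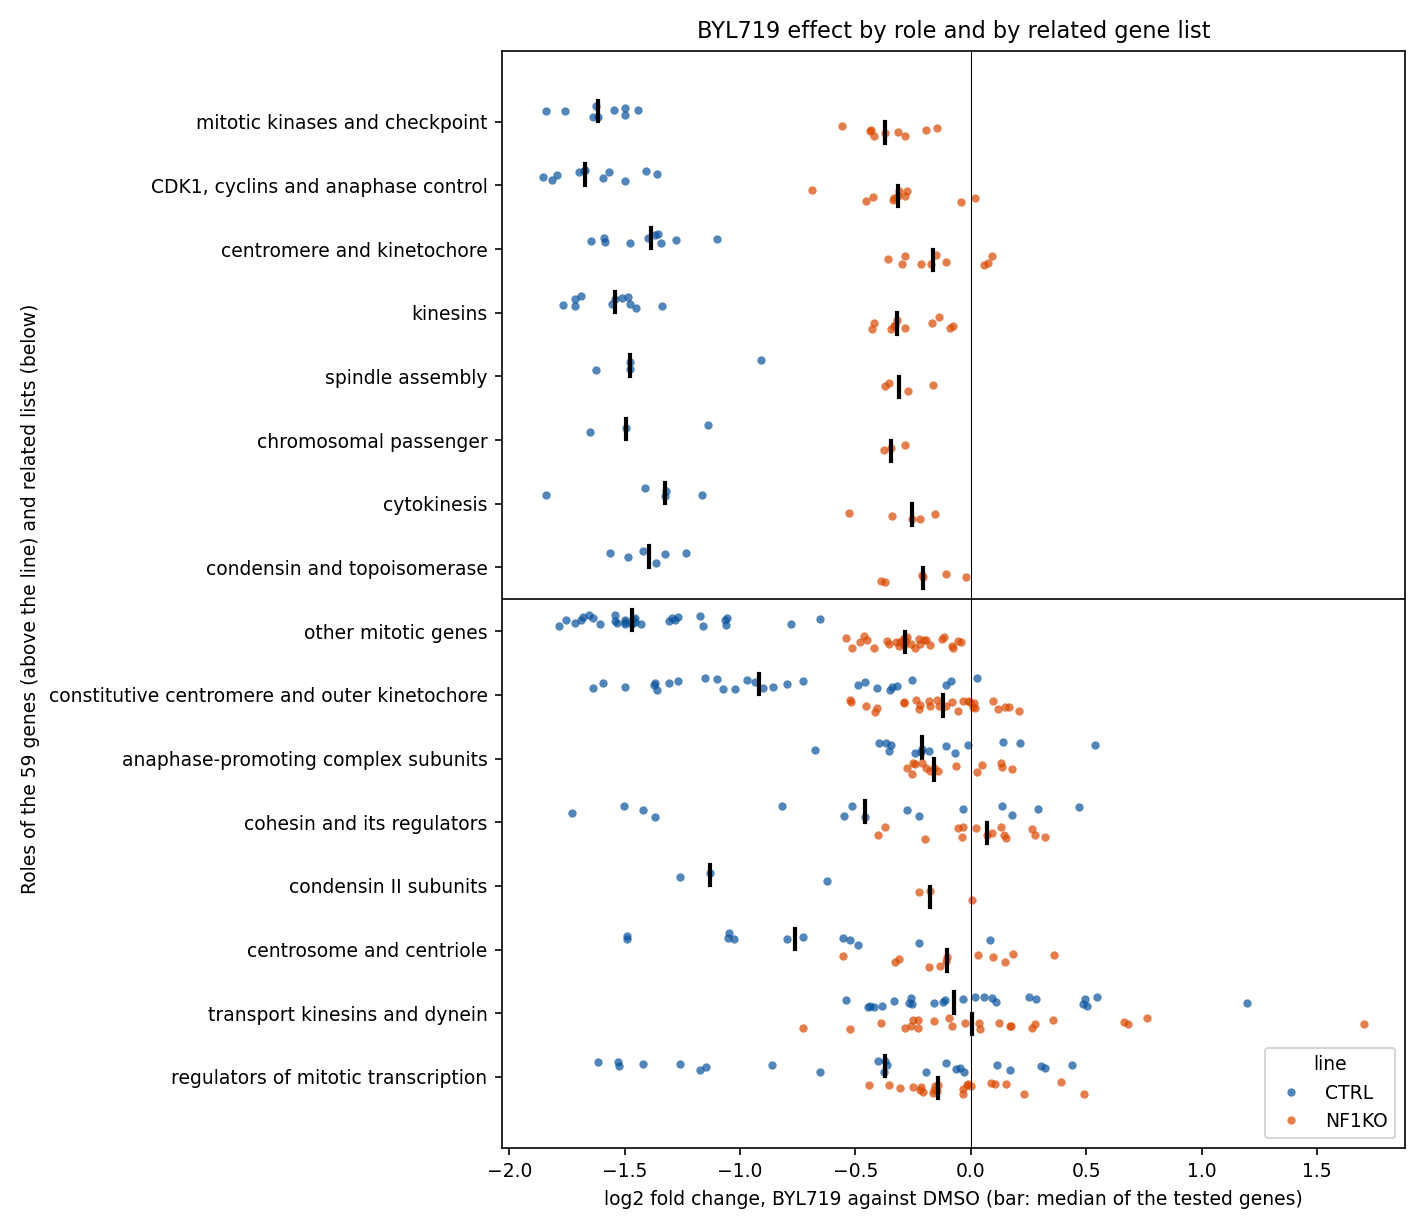
Log2 fold change of BYL719 against DMSO (x axis) in CTRL (blue) and NF1KO (orange), 1 point per tested gene and a bar at the median, for the 8 roles of the 59 genes (above the line) and 8 related lists (below it). The role medians lie between -1.67 and -1.33 in CTRL and between -0.37 and -0.16 in NF1KO, and the transport motors have medians of -0.07 and 0.00.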

How the data were processed

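Polyadenylated RNA was sequenced from T47D CTRL and NF1KO cells in DMSO or BYL719. The deposited table holds raw read counts per gene for 11 libraries, and NF1KO DMSO replicate 1 of the 12 labelled samples was not analysed here. Per the submitters' processing notes, STAR 2.5.2a, SAMtools 1.7, Picard 2.9.2, edgeR and the build hg38 were used. The counting tool, annotation and strand setting are not given in the sources used here. Counts were filtered with filterByExpr, scaled by TMM and fitted with edgeR 4.0.16 (quasi-likelihood, 4 groups, 7 residual degrees of freedom, R 4.3.3) over all genes, with Benjamini-Hochberg adjustment and a threshold of 0.05. CPM values are counts scaled by library size after TMM, and standard errors are the log2 fold change divided by the square root of F. The scripts were tested on simulated data. Alternatives were other scalings and filters, DESeq2 1.42.0, limma-voom 3.58.1, fits of the compared libraries alone, and each library left out. A replicate block shared by both lines was also run, and 1 over the CTRL libraries alone.

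Library values were given, per role, for the 2 genes with the largest and the 1 with the smallest difference of the BYL719 effect between lines, for any of the 59 genes called between the lines in DMSO, and for any not called in CTRL. Other lists name up to 4 genes with the smallest adjusted p in CTRL; further genes named were chosen after their values were seen. The 59 genes and all lists were chosen with earlier results of these data known. Replicate numbers were checked for pairing: deviations of same-numbered CTRL libraries in DMSO and BYL719 correlated at 0.59, 0.34 and 0.32, and the 2 NF1KO pairs at 0.084 and 0.15. CTRL libraries of unequal number correlated at 0.23 (DMSO 2 with BYL719 3) and 0.18 (DMSO 3 with BYL719 2). Where replicate 1 entered, unequal numbers correlated at -0.42 to -0.36. The data thus pair replicate 1 of the CTRL groups, and say less about numbers 2 and 3. Gene positions and promoters are from RefSeq GRCh38.p14 (59 of 59 Entrez identifiers had a position), and mRNA lengths are the longest protein-coding transcript in GENCODE 29. With these depths, counting error was small beside the spread between libraries, where chi-square per gene between replicates was 7.11 to 70.2.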

Additional observations from a re-analysis of the deposited data

Results flagged for a closer look

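The effect of BYL719 differed between the lines, by the interaction term of the edgeR quasi-likelihood fit over 16081 genes with Benjamini-Hochberg adjustment, for 54 of the 59 mitotic genes. It was called, with less lowering or more raising in NF1KO, for 28 of 30 other mitotic genes, 19 of 28 constitutive centromere and outer kinetochore genes, 1 of 15 anaphase-promoting complex subunits, 7 of 15 cohesin genes, 3 of 3 condensin II genes, 4 of 12 centrosome genes and 10 of 23 transcription regulators. Over all tested genes it was called in that direction for 5.68%, and the 1 of 15 anaphase-promoting complex subunits is near that share. Without both CTRL replicate 1 libraries the counts, in the same order, were 59, 30, 21, 1, 9, 3, 10 and 11. In that fit 1393 of 15941 tested genes were called in that direction.

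For single genes the difference on the log2 scale, NF1KO minus CTRL, was as follows. Among the kinases it was 1.20 for PLK1, 1.19 for TTK, 1.40 for NEK2 and 1.41 for PBK. Among the CDK1 regulators it was 1.02 for CDC25B, 1.51 for CDC25C and 1.40 for UBE2C. Among kinetochore genes it was 1.20 for CENPM, 1.06 for CENPN and 1.41 for SPC25. Among kinesins it was 1.57 for KIF15, 1.46 for KIF18A and 1.08 for KIF18B. TPX2 and HMMR, the spindle assembly genes, had 1.21 and 1.25. The chromosomal passenger genes had 1.36 (BIRC5), 0.79 (INCENP) and 1.12 (CDCA8). The cytokinesis genes had 1.26 (PRC1), 0.94 (ANLN) and 1.31 (SHCBP1), and the condensin and topoisomerase genes had 1.27 (NCAPG), 0.97 (NCAPD2) and 1.40 (TOP2A).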

How the results depend on the processing

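In the 26 genes given by library, no value that passed the test changed sign under the alternatives run, but 7 values that did not pass it did. Against CTRL in BYL719, ASPM stood at -0.0053 with RLE scaling, -0.0069 with upper-quartile scaling, -0.0044 with the stricter filter and -0.0051 with DESeq2, and ran from -0.21 to 0.49 without 1 library, where CENPE ran from -0.19 to 0.98. For BYL719 in NF1KO, CENPE was -0.26 with the replicate block and -0.027 to 0.18 without 1 library, CDC25C was -0.045 to 0.072 and TOP2A -0.0536 to 0.0045. In DMSO between the lines, SPC25 was 0.027 with the replicate block and -0.061 to 0.040 without 1 library, and CENPN was -0.017 to 0.15. The count of the 59 genes lower under BYL719 in CTRL stayed between 56 and 59, and 57 were called by DESeq2. The count lower in NF1KO was 25, against 41 with the replicate block, 40 with only the compared libraries and 41 without both CTRL replicate 1 libraries (added after the data were seen). It was 13 to 36 without 1 library outside the NF1KO DMSO group. Without 1 NF1KO DMSO library most of these calls were lost, and fewer of all tested genes were called as well. The replicate block changed the counts of the other comparisons by at most 2 genes: KNL1 was gained in BYL719 between the lines, and KNL1 and KIF20B for the difference. In DMSO the count lower in NF1KO was 3, against 5 with only the compared libraries, 10 without both CTRL replicate 1 libraries and 0 to 10 without 1 library. The count higher there was 2, and 0 to 2 without 1 library. The count for the difference was 54, and 50 to 59 without 1 library. Of the 26 genes given by library, the NF1KO effect lost a call 26 times and gained one 40 times over all genes and settings. The CTRL effect lost a call 9 times. All 26 were already called in CTRL in the main fit, so no gain was possible there. The cause of these shifts was not tested. A fit without an NF1KO DMSO library leaves 1 library in that group, which is assumed to vary like the others.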

Other observations

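Promoter letters were also compared with the BYL719 response outside the 59 genes, as a description with no test. Of tested genes other than the 59 whose RefSeq promoter windows held both a CHR and CCAAT, 33.2% of 792 were called lower in CTRL under BYL719. Of those with a CHR alone it was 21.1% of 872, with CCAAT alone 24.9% of 4297, and with neither 19.2% of 6152. The median log2 fold changes of these classes were all near 0, from -0.05 for both motifs to 0.03 for neither. Within the 59 genes the letters did not order the response: the CTRL medians were -1.48 with both motifs (31 genes), -1.44 with a CHR alone (8), -1.61 with CCAAT alone (8) and -1.48 with neither (3).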
